A study of Homo sapiens with 16 samples.

Results

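Peaks of the transcription factor NF-κB were counted and placed at 10 genes that encode its own subunits and inhibitors, of 20037 protein-coding genes in all. The 10 genes were taken by name: the subunits RELA, RELB, REL, NFKB1 and NFKB2, the inhibitors NFKBIA, NFKBIB, NFKBIE and TNFAIP3, and BCL3, an atypical member of the inhibitor family. A gene's window was its RefSeq span in GRCh38 with 1 kb added on either side, and a gene had a peak when a listed peak overlapped that window by at least 1 bp. Chromatin immunoprecipitation sequencing (ChIP-seq) had been done in T47D, an established Luminal A breast cancer line, with antibodies to RELA (p65), RELB and NFKB2. The knockdown cells had received lentiviral shRNAs against DAB2IP, a RasGAP, and the control cells an empty vector control shRNA, and all cells had been selected with puromycin and fixed with disuccinimidyl glutarate followed by formaldehyde. Each antibody was used in 2 knockdown and 2 control libraries, which gave 12 lists of peaks. No stimulus of NF-κB is named in the labels, the label does not say which shRNA a library came from, and peak lists hold no expression level against which the knockdown or the cell line could be checked. Nothing says that the libraries of a group came from separate cultures, so the spread between them may be technical. The labels name an input for each condition and replicate number, so the libraries of different antibodies with that number may share a preparation. Values over the 12 libraries then do not rest on 12 separate samples.

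NF-κB dimers are kept in the cytoplasm by IκB proteins until IκB kinase marks these for breakdown, and freed dimers bind κB sites in DNA. Several genes of the pathway are themselves textbook NF-κB targets: NFKBIA and TNFAIP3 form negative feedback loops, and NFKB1, NFKB2, REL and RELB can be induced by the factor they help to build. Counting peaks at these genes asks whether such autoregulatory loci were occupied in T47D cells, and whether occupancy differed after DAB2IP knockdown.

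Promoter sequence, from 250 bases before to 50 after a start site, was at hand from RefSeq (GRCh38.p14) for 8 of the 10 genes, with 13 start sites between them; RELB and NFKBIE had no entry. The κB consensus was found in 8 of these 13 promoters, which belonged to 7 genes, against 12.7% of 22199 promoters of protein-coding genes. RELA was the gene without a match in either of its promoters. The promoters of 4 genes are shown 5′ to 3′ on the gene's strand, with the consensus match in capitals, because the peaks described further on either cover or miss these letters.
NFKB1, chr4:102501109-102501408, plus strand: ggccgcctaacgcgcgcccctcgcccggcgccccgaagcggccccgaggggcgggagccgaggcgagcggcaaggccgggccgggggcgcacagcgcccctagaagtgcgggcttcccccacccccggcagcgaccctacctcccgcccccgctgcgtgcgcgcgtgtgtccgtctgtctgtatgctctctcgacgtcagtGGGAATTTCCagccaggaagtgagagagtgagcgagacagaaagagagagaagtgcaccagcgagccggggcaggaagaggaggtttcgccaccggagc
REL, chr2:60881324-60881623, plus strand: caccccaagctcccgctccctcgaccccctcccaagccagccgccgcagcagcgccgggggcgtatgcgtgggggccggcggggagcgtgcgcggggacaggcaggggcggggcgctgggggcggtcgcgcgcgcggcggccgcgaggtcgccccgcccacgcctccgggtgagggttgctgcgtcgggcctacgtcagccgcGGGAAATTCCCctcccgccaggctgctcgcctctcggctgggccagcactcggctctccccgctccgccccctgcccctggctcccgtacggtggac
NFKBIA, chr14:35404700-35404999, minus strand: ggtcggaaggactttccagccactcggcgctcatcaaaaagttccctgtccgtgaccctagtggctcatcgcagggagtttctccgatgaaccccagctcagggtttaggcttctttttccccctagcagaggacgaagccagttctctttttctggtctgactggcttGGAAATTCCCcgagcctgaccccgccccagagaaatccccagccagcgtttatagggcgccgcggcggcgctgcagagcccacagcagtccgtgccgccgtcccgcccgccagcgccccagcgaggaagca
BCL3, chr19:44748458-44748757, plus strand: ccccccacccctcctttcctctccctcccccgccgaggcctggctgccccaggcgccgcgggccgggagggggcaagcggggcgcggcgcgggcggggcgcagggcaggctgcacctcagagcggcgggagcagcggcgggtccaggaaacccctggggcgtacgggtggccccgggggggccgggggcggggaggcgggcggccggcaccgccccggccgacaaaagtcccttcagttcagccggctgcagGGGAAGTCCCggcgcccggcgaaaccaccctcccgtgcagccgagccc
The match ended 40 bases before the start of NFKB1 and 37 bases before that of REL. In NFKBIA, which encodes IκBα, it lay 72 bases before the start, and in BCL3 it began 2 bases after it. A match is a run of letters and not a measured site.

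The lists were called at an unadjusted p of 0.05 and ran from 517650 to 708764 peaks in 10 libraries, but 2 knockdown libraries had short lists: 105534 peaks in RELA replicate 1 and 75078 in RELB replicate 1. In these same 2 libraries a scaling down of the immunoprecipitated sample, by factors of 0.91 and 0.983, was inferred from fold enrichments and p-values. No label or list states these factors. Read totals are not in the lists, so the depth is unknown, but the number of fragments at each summit could be recovered from its fold enrichment and p-value. Both short lists enter the counts below, and values without them are given where they matter.

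The 10 genes held 610 peaks over the 12 libraries, and these were weak. Their fold enrichment over the local background had a median of 2.17, from 1.48 to 4.58, and 449 of them (73.6%) rested on 3 or fewer fragments, with a median of 3 and at most 9. Peaks with a q, the p-value adjusted over the genome, of at most 0.05 were found at 0 of the 10 genes in each of the 12 libraries, where 2 to 21 of all protein-coding genes per library had one, 0.062% of the pairs of gene and library. One peak alone of the 610 had a −log10 q above 0, at 0.294. It lay in NFKB1 in control RELB replicate 1, at chr4:102613762-102614000, with 7 fragments over a background of 0.745, a fold of 4.58 and a −log10 p of 5.91. Its summit was 111929 bp beyond the nearest start site, towards the far end of the gene.

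With the RELA antibody, 7 and 8 of the 10 genes had a listed peak in the control libraries, where 81.2% and 84.2% of all protein-coding genes had one, and 3 and 9 in the knockdown libraries, against 54.3% and 85.3%. The RELB antibody gave 7 and 7 genes in control cells, against 83.6% and 80.4% of all genes, and 3 and 6 in knockdown cells, against 49.4% and 78.2%. The NFKB2 antibody gave 8 and 8 in control cells, against 85.5% and 81.1%, and 9 and 6 in knockdown cells, against 84.3% and 82.9%. In 81 of the 120 pairs of gene and library (67.5%) the gene thus had a peak, and 75% did without the 2 short lists. A peak in all 12 libraries was seen at 2 genes, NFKB1 and REL, as at 35.9% of all genes. None of the 10 was without a peak in every library, as 2.95% of all genes were. These shares over all genes are not matched for gene length, and 7 of the 10 genes were under 20 kb long. Among the 200 genes nearest in length, the median share with a peak ran from 48% for NFKBIA to 100% for NFKB1.

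The subunit genes RELB, REL and NFKB1 are over 30 kb long and held 513 of the 610 peaks (84.1%) on 71.8% of the bases of the 10 windows. NFKB1 (chr4:102501359-102617302), which encodes p105 and its product p50, held 285 peaks, or 46.7% of all. Its counts were 19 and 18 in control and 4 and 25 in knockdown cells with the RELA antibody, 29 and 21 against 3 and 37 with the RELB antibody, and 38 and 32 against 24 and 35 with the NFKB2 antibody. The low counts, 4 and 3, came from the 2 short lists, and control and knockdown values overlapped for all 3 antibodies.

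REL (chr2:60881574-60931612), which encodes c-Rel, held 134 peaks. Its counts were 10 and 7 in control and 1 and 14 in knockdown cells with the RELA antibody, 12 and 10 against 1 and 16 with RELB, and 20 and 17 against 12 and 14 with NFKB2. Knockdown and control counts of REL overlapped for the RELA and RELB antibodies, and both control counts were above both knockdown counts for NFKB2. RELB (chr19:45001464-45038192), the subunit that pairs with NFKB2 products in the noncanonical pathway, held 94 peaks and shared its window with part of CLASRP. With the RELA antibody it had 8 and 10 peaks in control and 2 and 7 in knockdown cells, with RELB 12 and 2 against 0 and 7, and with NFKB2 13 and 14 against 5 and 14. For RELB the control counts lay above the knockdown counts with the RELA antibody, by a margin of 1 peak, and overlapped or tied with the other antibodies.

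The other 7 genes were under 20 kb long and held 97 peaks. RELA (chr11:65653601-65663857), which encodes p65, had 14: 1 and 3 in control and 0 and 2 in knockdown cells with the RELA antibody, 1 and 1 against 1 and 0 with RELB, and 1 and 1 against 3 and 0 with NFKB2. NFKB2 (chr10:102394110-102402529), which encodes p100 and its product p52, had 9: 0 and 1 against 0 and 3 with RELA, 1 and 0 against 0 and 0 with RELB, and 1 and 2 against 1 and 0 with NFKB2. Both subunit genes stayed at 3 peaks or fewer in every library, and no antibody separated knockdown from control.

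Among the inhibitors, NFKBIA (chr14:35401513-35404749) had 9 peaks. Its counts were 3 and 0 in control and 0 and 2 in knockdown cells with the RELA antibody, 1 and 0 against 0 and 0 with RELB, and 1 and 0 against 1 and 1 with NFKB2. The RELA antibody thus gave peaks at NFKBIA in 1 control and 1 knockdown library. TNFAIP3 (chr6:137866349-137883312), the gene of the deubiquitinase A20, had 39 peaks, with 3 and 2 against 0 and 4 for RELA, 1 and 2 against 0 and 6 for RELB and 5 and 4 against 3 and 9 for NFKB2. The knockdown counts of TNFAIP3 lay on both sides of the control counts with each antibody.

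BCL3 (chr19:44747705-44760044), whose product binds p50 and p52 homodimers, had 19 peaks, of which 7 were in control NFKB2 replicate 1; its other libraries had 0 to 3. NFKBIE (chr6:44258166-44265551), the gene of IκBε, had 6 peaks in 5 libraries, at most 2 in any. Its window also reached SLC35B2, and its peaks at chr6:44257348-44257754 and chr6:44257911-44258057 lay in the flank outside the gene. The windows of NFKB2 (with PSD) and NFKBIB (with SIRT2 and CCER2) reached other protein-coding genes as well. At NFKBIB (chr19:38899666-38908889), the gene of IκBβ, the sole entry was in knockdown RELA replicate 2, and it was an interval of 188160 bp with 1 fragment at a summit outside the gene. Without this interval NFKBIB had 0 peaks in 12 libraries and the pairs with a peak were 80 (66.7%).

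**Figure D1:**
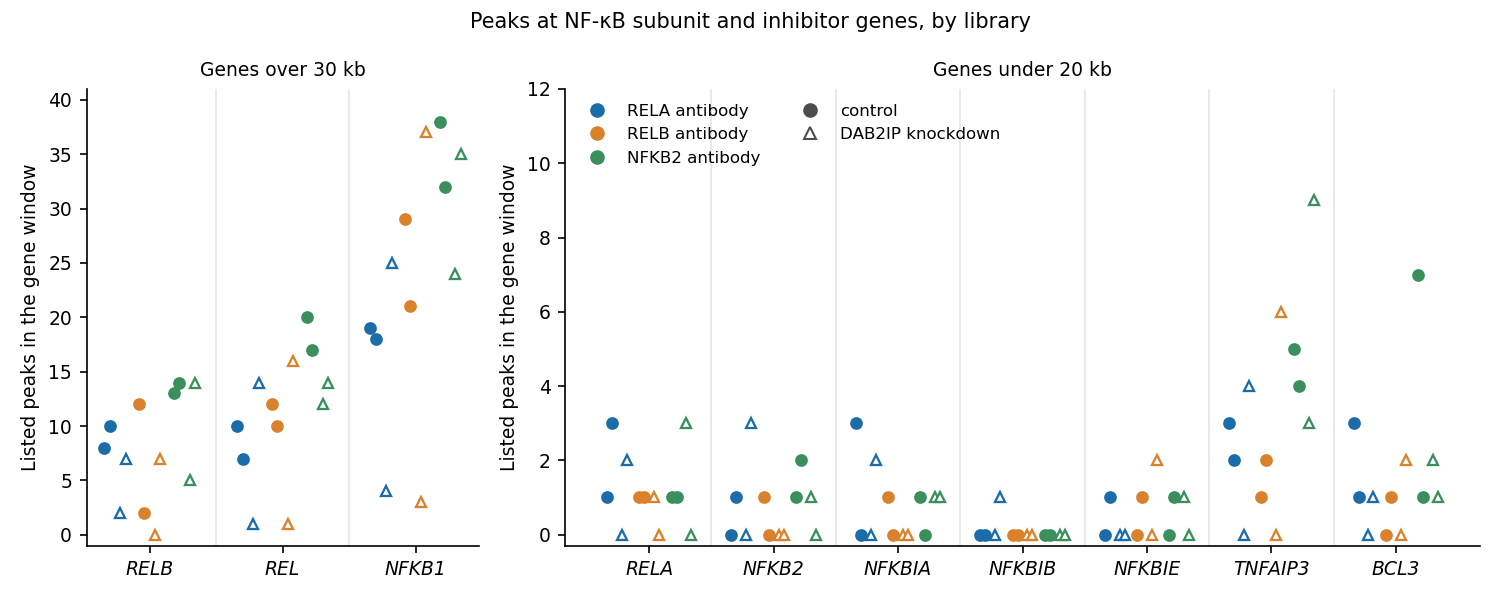
Number of listed peaks (vertical axes) in each gene's window, 1 symbol per library, coloured by antibody, with filled circles for control and open triangles for DAB2IP knockdown; genes over 30 kb are on the left and those under 20 kb on the right, on different scales. NFKB1 reached 38 peaks in 1 library, the genes under 20 kb at most 9, and triangles and circles overlap in nearly all columns.

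Long genes hold more peaks, so each gene was ranked by its number of peaks among the 200 protein-coding genes nearest to it in length, within each library; a percentile of 50 is the middle. The median percentile over the 120 pairs was 43.9, with 53 above 50 and 67 below. It was 40.8 for the RELA antibody, 40.4 for RELB and 54.1 for NFKB2, and 48.9 over all antibodies without the 2 short lists. RELB and REL had the highest medians over the 12 libraries, at 73.6 and 72.8, but their libraries ran from 11 to 94.8 and from 28 to 92.5. NFKB1 (57.4), TNFAIP3 (56.5) and NFKBIA (49.8) followed, then RELA (44.3), NFKBIE (40), NFKB2 (37.6), BCL3 (33.6) and NFKBIB (16.8). Libraries of neighbours in this order overlapped throughout. Only 3 pairs exceeded the percentile of 95, and 0 were under 5. The highest was NFKBIA in control RELA replicate 1, at 98.3 with its 3 peaks, but NFKBIA stood at 24.8 in control RELA replicate 2, where it had 0.

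**Figure D2:**
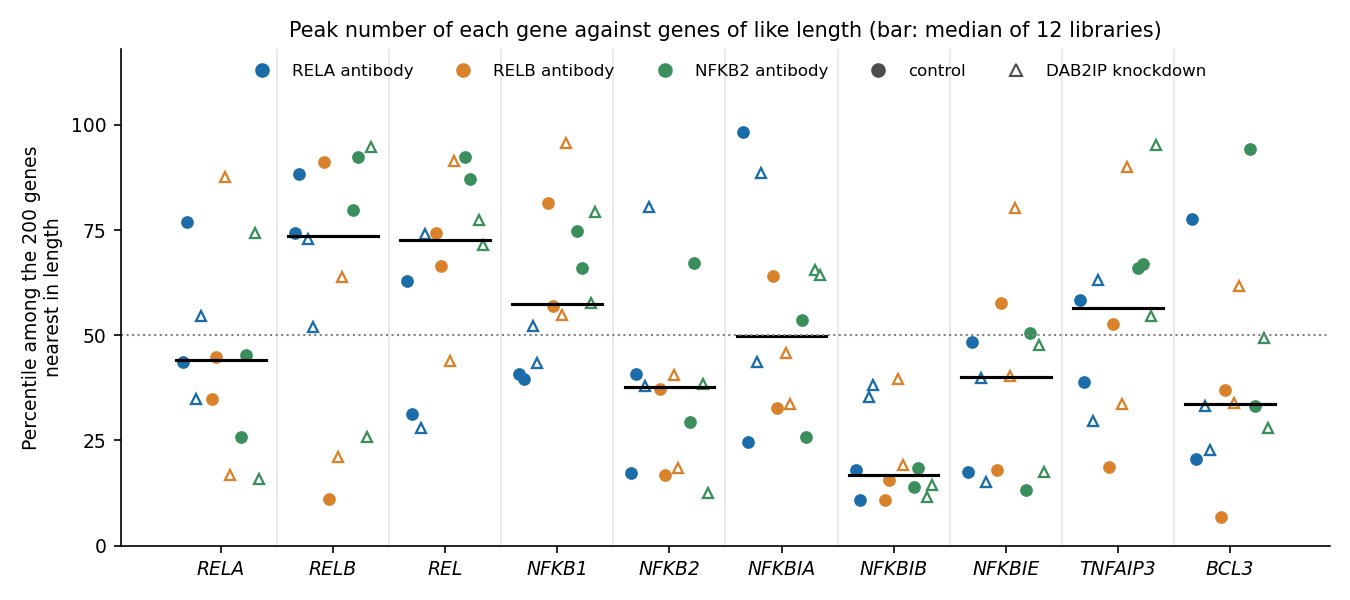
Percentile of each gene's peak number among the 200 protein-coding genes nearest in length (vertical axis, 50 marked by a dotted line), 1 symbol per library, with a black bar at the median of 12 libraries. The bars run from 16.8 for NFKBIB to 73.6 for RELB, and the symbols of single genes spread widely around them.

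The surrounding chromatin gave a second scale. REL had 0.213 ± 0.114 summits per kb of window (SD over 12 libraries), RELB 0.202 ± 0.126 and NFKB1 0.201 ± 0.0986. These 3 densities were close, from 0.201 to 0.213. The SDs mix antibodies, conditions and lists of different length. Each gene was counted in the same libraries, so the SDs do not measure the error of a difference between genes. The 500 kb on either side gave mean densities of 0.200 around REL and NFKB1 and 0.147 around RELB, so the ratios of gene to surroundings were 1.07, 1.01 and 1.38. In these means the other 7 genes were below their surroundings, with ratios of 0.955 for RELA, 0.891 for TNFAIP3, 0.758 for NFKBIA, 0.681 for BCL3, 0.601 for NFKB2, 0.477 for NFKBIE and 0 for NFKBIB, which had no summit in its window. The gene exceeded its surroundings in 9 of 12 libraries for RELB, 6 for REL and 5 each for NFKB1 and RELA. NFKB1 and RELA were thus alike by library, though their ratios fell on either side of 1. Each remaining gene did so in at most 3 libraries. The median ratio over the 10 genes was 0.825.

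Peaks were then placed relative to start sites, near which κB sites of autoregulated genes commonly lie. Of 96 pairs of gene and library (8 genes with a listed start, 12 libraries), 26 (27.1%) had a summit within 1 kb of a start, while the share was 26.8% over all 15843 genes with a listed start and 28.9% over genes with as many starts. By antibody these were 8 of 32 pairs (25%) for RELA, 7 of 32 (21.9%) for RELB and 11 of 32 (34.4%) for NFKB2, and 24.4%, 23% and 33.1% over all genes. Without the 2 short lists the shares were 30% for the 8 genes and 30.8% for all. The 8 genes thus had summits near their starts about as often as any gene. Per kb and library, summits were sparser within 1 kb of a start (0.129) than in the rest of the windows (0.178), a ratio of 0.722, and the ratio over all genes was 0.800.

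RELA had a summit near a start in 6 libraries, NFKB1 and NFKB2 in 5 each, REL in 4, NFKBIA in 3, BCL3 in 2, TNFAIP3 in 1 and NFKBIB in 0. The summits of RELA were spread out, from 218 bp before to 998 bp after the nearest start. Of its 12 merged regions, 0 were called in both libraries of any group, against 8.40% in the windows of all protein-coding genes. At NFKBIA the summits lay 120 and 639 bp after the start in control RELA replicate 1, 557 bp before it in knockdown RELA replicate 2 and 523 bp after it in control NFKB2 replicate 1, each with 4 or 5 fragments. TNFAIP3 had both of its near-start peaks in knockdown RELB replicate 2, on 4 and 5 fragments. At REL, control RELB replicate 1 and control NFKB2 replicate 2 had summits 494 and 495 bp after the start, in overlapping peaks of 3 and 4 fragments.

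**Figure D3:**
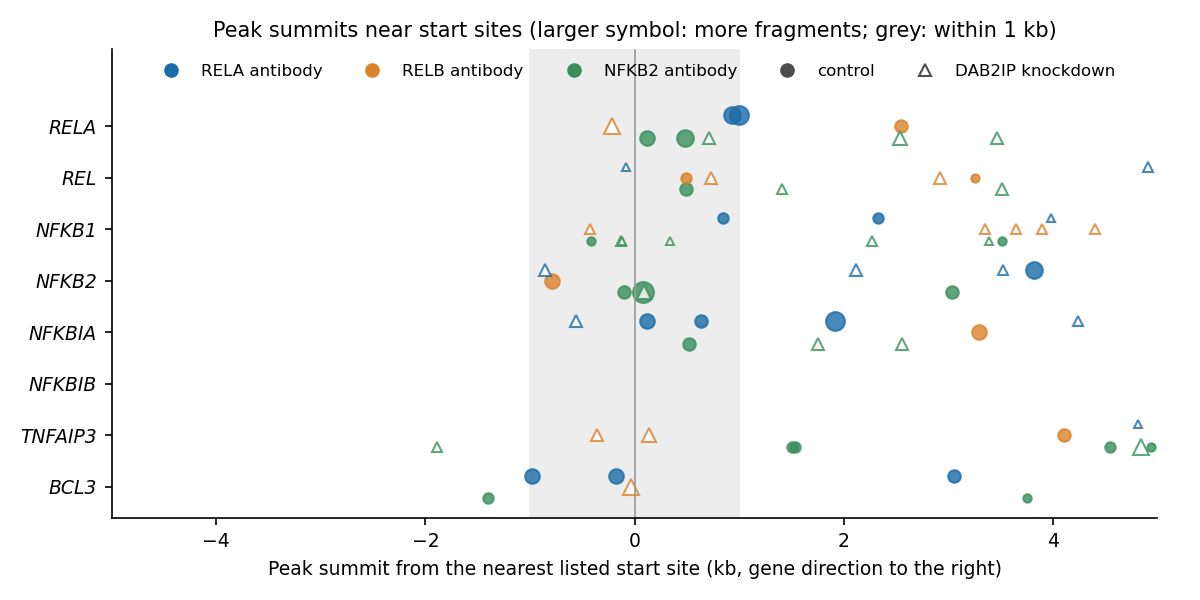
Peak summits within 5 kb of the nearest listed start site (horizontal axis in kb, gene direction to the right) for the 8 genes with a listed start, coloured by antibody, with circles for control and triangles for knockdown libraries and larger symbols for more fragments at the summit. The grey band marks 1 kb on either side; 30 summits lie in it, 0 of them at NFKBIB.

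A peak overlapped a promoter in 15 of 156 pairs of promoter and library (9.62%), and in 7.59% over all promoters. Among the 15, the pairs at both NFKBIB promoters came from the single interval of 188160 bp in knockdown RELA replicate 2. That interval was not left out of this share. Over all promoters the share was 7.28% where the κB consensus was present and 7.63% where it was absent. The consensus itself, at 15 positions in the 8 promoters, was under a peak of at most 5 kb in 10 of 180 pairs of position and library (5.56%), and in 3.30% over all 3290 positions. Of these 10 pairs, 3 came from 1 peak over overlapping and neighbouring matches at NFKB2 in control NFKB2 replicate 1 and 2 from 1 peak at REL.

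The printed NFKB1 match, GGGAATTTCC at chr4:102501310-102501319, lay under a peak in both knockdown NFKB2 libraries and in neither control NFKB2 library. The peak of replicate 1 had 3 fragments over a background of 0.441, a fold of 2.78 and a −log10 p of 2.96. In replicate 2 the peak ended on the last base of the match and had 2 fragments over 0.698, a fold of 1.77 and a −log10 p of 1.47. Both had a −log10 q of 0. Of all 3290 positions, 0.122% had this pattern for NFKB2 and 0.274% the mirror pattern, with both control and neither knockdown library. The position was singled out after its values had been seen. Control NFKB2 replicate 2 and knockdown RELB replicate 1 had peaks that overlapped that of knockdown NFKB2 replicate 1 but stopped short of the match, and the merged region, chr4:102500877-102501372, was called in 4 libraries.

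The BCL3 match, GGGAAGTCCC at chr19:44748710-44748719, was under a peak in control RELA replicate 1 (5 fragments over 0.902, fold 3.15) and knockdown RELB replicate 2 (6 fragments over 1.52, fold 2.78). The REL match was covered in knockdown RELA replicate 2 alone, by a peak of 2 fragments. At NFKBIA, GGAAATTCCC at chr14:35404821-35404830 was under a peak in 0 of 12 libraries, as were both matches in the TNFAIP3 promoter. A position without a listed peak is not shown to be unbound.

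Knockdown and control were compared gene by gene. With 2 libraries against 2, the smallest p of an exact two-sided permutation test is 0.33, so the comparison shows only whether the groups overlapped. For the RELA antibody, 1 of the 10 genes (RELB, 8 and 10 against 2 and 7 peaks) had both control counts above both knockdown counts, as did 13.5% of all genes, and 0 had the reverse, as did 0.719%. For NFKB2, 1 gene (REL, 20 and 17 against 12 and 14) had control above knockdown, with 14.6% of all genes, and 0 had the reverse, with 8.13%. For the RELB antibody, 0 genes separated in either direction, with 25% of all genes higher in control and 0.494% higher in knockdown. Both short lists were knockdown lists, of the RELA and RELB antibodies, and counts were therefore also set against list length.

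Per 100000 listed peaks, 1 gene stood apart in each direction for the RELA antibody. NFKB1 was higher in knockdown (3.79 and 3.63 against 3.60 and 3.48), as 9.86% of all genes were, and BCL3 was higher in control, as 19.1% were. For NFKB2, REL was higher in control (2.82 and 2.52 against 2.09 and 2.1), with 12.2% of all genes, and NFKBIA higher in knockdown (0.174 and 0.150 against 0.141 and 0), with 17.3%. The peak counts themselves overlapped or tied for NFKB1, BCL3 and NFKBIA, and at NFKBIA 0.174, 0.150 and 0.141 each stand for 1 peak over lists of different length. For RELB, 0 genes separated, with 9.67% of all genes higher in knockdown and 19% higher in control. REL under the NFKB2 antibody was the one gene of the 10 that separated on both scales in the same direction. For that antibody, control was higher at 14.6% of all genes by count and at 12.2% per 100000. The share of all genes that separated on both scales was not counted.

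Summed over the 10 genes, peaks per 100000 listed peaks were 7.60 ± 1.37 in knockdown and 8.61 ± 0.428 in control cells with the RELA antibody (SD, n = 2 each), 9.66 ± 4.25 and 8.73 ± 2.11 with RELB, and 10.1 ± 1.45 and 11.4 ± 1.04 with NFKB2. The number of the 10 genes with a peak was 6 ± 4.24 and 7.5 ± 0.707 with RELA, 4.5 ± 2.12 and 7 ± 0 with RELB, and 7.5 ± 2.12 and 8 ± 0 with NFKB2. In peaks per 100000, libraries of knockdown and control overlapped for RELB and NFKB2, and for RELA one knockdown library lay between the control libraries. Of these 6 knockdown minus control differences, 3 changed sign when 1 library was left out. Genes with a peak for RELA, -1.5, were 1.5 without knockdown RELA replicate 1, and peaks per 100000 for RELB, 0.932, were -2.07 without knockdown RELB replicate 2 and -0.561 without control RELB replicate 2. For NFKB2 the difference in genes, -0.5, was 1 without knockdown NFKB2 replicate 2. The other 3 kept their sign whichever library was left out. RELB genes ranged from -4 to -1, RELA peaks per 100000 from -1.98 to -0.0444 and NFKB2 peaks per 100000 from -2.35 to -0.303. The share of all genes with a peak was also lower in knockdown with the RELB antibody, at 49.4% and 78.2% against 83.6% and 80.4%. No test was run on the sums over the 10 genes.

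Recurrence of merged regions across libraries was close to that at other genes. Peaks of at most 5 kb were merged over the 12 libraries where they shared 1 bp, which gave 361 regions at the 10 genes. Peaks can be linked in a chain, so those of 1 region need not all overlap each other. Of these, 217 (60.1%) were called in 1 library, and 61.5% in the windows of all protein-coding genes. Both libraries of at least 1 group called 30 regions (8.31%, against 8.40%), 28 were called in 4 or more libraries (7.76%, against 6.97%), and 1 in all 4 libraries of an antibody (0.277%, against 0.274%). The region called in all 4 libraries of an antibody was in REL. So was the region called most often, at chr2:60891326-60892113, which 7 libraries called 10.1 kb into the gene with 3 fragments at most. Of the 30 regions shared by both libraries of a group, NFKB1 held 15 (among its 168 regions) and REL 7 (among 76). RELB held 4 (among 54), TNFAIP3 3 (among 20) and BCL3 1 (among 11). RELA, NFKB2, NFKBIA and NFKBIE held 0, among 12, 8, 7 and 5 regions. These genes had too few regions for 0 to be told apart from the 8.40% over all genes.

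**Figure D4:**
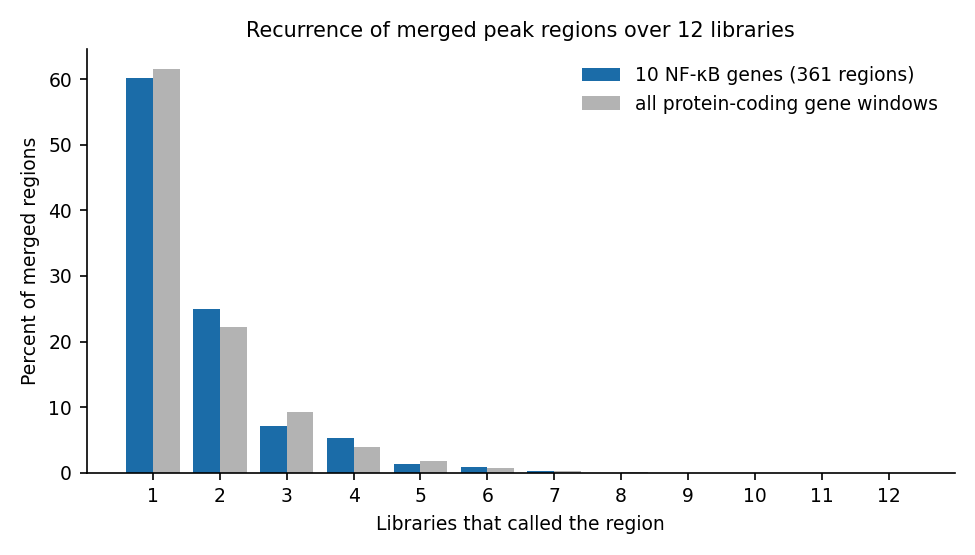
Share of merged peak regions (vertical axis, percent) by the number of the 12 libraries that called them (horizontal axis), for the 361 regions at the 10 NF-κB genes and for the windows of all protein-coding genes. Regions called in 1 library made up 60.1% and 61.5%, and the bars of both sets fall off alike, to at most 7 libraries at the 10 genes.

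A further 32 genes of the pathway (receptors, adaptors, kinases, ubiquitin regulators and the atypical IκB genes NFKBID and NFKBIZ) were counted for comparison. Their median percentiles among genes of like length had a median of 48.4, with 15 of 32 above 50, where the 10 genes had 47 and 4 of 10. The highest were the kinases IRAK1 (84.1), IRAK4 (80) and MAP3K7 (71.4). Their libraries ran from 45.5 to 98.5, from 23.75 to 99.5 and from 31.25 to 92.25. The lowest were TNIP1 (8.75), an A20-binding inhibitor, TRAF2 (14.3), an adaptor of TNF receptors, and MAP3K14 (15.4), the kinase NIK of the noncanonical pathway. Peaks with a q of at most 0.05 were found at 0 of these 32 genes too.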

How the data were processed

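ChIP-seq peak lists of 12 T47D libraries were used, grouped by the condition, antibody and replicate number in the sample labels; 4 input libraries had no list of their own. Per the labels, the authors' processing named BWA 0.7.12, MACS2 2.1.0 and hg38. Each list was called per library, and its largest p-value showed a threshold of 0.05. The deposited positions are in base pairs, the deposited score is a whole-number form of the −log10 p-value, the deposited ratio is fold enrichment over local background, taken at the summit, and the authors' −log10 p-values and −log10 q-values stand beside it. They were used to describe or filter peaks.

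Intervals on chromosomes 1 to 22, X and Y were counted once each, against RefSeq genes and promoters of GRCh38.p14, with Python 3.11.15, numpy 2.4.6, pandas 2.3.3 and scipy 1.17.1. Fragments were solved from fold and p under the peak caller's pseudocount of 1 and Poisson model. A scale factor per library was fitted as the one that made most fragment numbers whole. With it they were whole within 0.02 for 99.8% or more of about 3000 peaks sampled per library. Counting and recovery were tested on simulated data. Like-length percentiles are mid-ranks among 200 genes. The κB consensus (GGG, a purine, any base at 2 positions, pyrimidines at 2 positions, then CC) was searched on both strands, with overlapping matches counted.

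The genes and lists were chosen with earlier results of these data known, so sums over them carry no test. All 10 genes were named; of the other 32, the 3 highest and 3 lowest by percentile; promoters were printed for at most 4 genes with a match, those with most libraries with a summit near that start. Start-site shares use 32 pairs per antibody, since RELB and NFKBIE had no listed start. Replicate numbers were not taken to pair knockdown with control libraries. Alternatives varied the flank, peak threshold, neighbours, start window and libraries used. Outlying samples were not tested for in groups of 2.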

Additional observations from a re-analysis of the deposited data

How the results depend on the processing

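Under the alternatives, 100 values moved by less than the spread between replicates (1 SD), 17 moved further and 2 changed sign by at least that much. With the 20000 smallest p-values of each list, knockdown minus control in peaks per 100000 was -5 for RELA, -7.5 for RELB (0.932 with all peaks, a change of sign) and -5 for NFKB2. These differences, and the change of sign, rest on few peaks, since 1 peak in so short a list weighs heavily per 100000. The mean number of genes with a peak was then 0.5 in knockdown and 1.5 in control libraries with RELA. It was 0.5 and 1 with RELB, and 0.5 and 1 with NFKB2. The share of all genes with a peak was not counted under this setting, so these means cannot be set against it. Under the same setting the NFKB2 percentile was 47.4, and summits within 1 kb of a start fell to 0% for all 3 antibodies, where all genes had 1.39%, 1.43% and 1.32%. The RELB difference in genes with a peak (-2.5) was -0.5 with the 20000 smallest p-values, -0.5 without the added flank and 0 at a q of at most 0.05. Within 5 kb of a start the shares were 56.3% for RELA, 53.1% for RELB and 68.8% for NFKB2 (63.3%, 60.3% and 76.9% over all genes); from 250 bases before to 50 after it they were 6.25% for RELA and 9.38% for NFKB2 (4.83% and 7.18%). The cause of these moves was not tested, though a wider or narrower window holds more or fewer summits by construction. When 1 library at a time was left out, the difference in genes with a peak ranged between -4.5 and 1.5 with the RELA antibody (above 0 without knockdown RELA replicate 1), between -4 and -1 with RELB, and between -2 and 1 with NFKB2 (1 without knockdown NFKB2 replicate 2, against -0.5 with it). Peaks per 100000 then ran from -1.98 to -0.0444, -2.07 to 3.94 and -2.35 to -0.303, with RELB below 0 without knockdown replicate 2 or control replicate 2. Percentiles ran from 39.6 to 43.6, 39.9 to 42.3 and 52.5 to 59, and start-site shares from 20.8% to 33.3%, 16.7% to 29.2% and 29.2% to 41.7%. Leaving out the 2 short lists, and leaving out intervals over 5 kb in the values over all 12 libraries, were chosen after seeing the data.

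With the replicate number as a block, the mean differences were the same: -1.5, -2.5 and -0.5 genes, and -1.01, 0.932 and -1.33 peaks per 100000. This holds by construction, since each number has 1 knockdown and 1 control library per antibody. The blocked values are counted among the 100 that moved little, though they could not move. Deviations of same-numbered knockdown and control libraries correlated at -0.0655, 0.0290 and 0.0578, so the numbers were not taken as pairs. Densities against the surrounding 500 kb are on another scale than the percentiles and are given in the report.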
